A study of Mus musculus with 9 samples.

Results

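The simple epithelial keratins Krt7, Krt8, Krt18, Krt19, Krt20 and Krt23 are described here in sorted cells of mouse bile duct organoids. They were chosen by gene name, and all 6 were found among the 32137 genes of the count files. Bulk RNA was sequenced in 9 libraries from organoids of 1 male animal of mixed genetic background. That animal carried Axin2CreERT2+/-, which produces a tamoxifen-dependent Cre recombinase in cells that express Axin2, and R26-LSL-tdTom+/-, which turns on a red reporter once Cre has acted. Organoids grew for 2 to 4 days and were then differentiated for 11 days. In the last 24 h every culture received dexamethasone at 3 uM and 4-OHT, the active form of tamoxifen, at 500 nM. The Rspo1 cultures also received R-spondin 1 at 100 ng/ml, a ligand that strengthens the response to Wnt.

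The 3 groups have 3 libraries each. Cells without the reporter from cultures without Rspo1 are called untreated. Cells without and with the reporter from Rspo1 cultures are called Rspo1 tdTom- and Rspo1 tdTom+ cells. Each group was sampled once at organoid passages 5, 6 and 10, so the replicates are repeated cultures of 1 line. The p-values of group comparisons measure the spread between these cultures and not between animals. A passage has 1 library of each group, so passage cannot be told apart from other differences between the rounds of culture. In these bulk samples, fewer cells of a type and less RNA per cell cannot be told apart.

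Keratins are the intermediate filament proteins of epithelia. A filament needs a type I and a type II keratin, which pair before they assemble. Krt7 and Krt8 are type II, and Krt18, Krt19, Krt20 and Krt23 are type I. Krt8 and Krt18 form the basic pair of simple epithelia and are the keratins of hepatocytes. Bile duct cells add Krt7 and Krt19, which is why these serve as duct markers. Krt20 is best known from the surface epithelium of the gut and stomach and from the urothelium, and Krt23 is a less abundant, inducible type I keratin.

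Total counts ranged from 23423979 to 37351448 per library, and 17011 genes were tested. The Wnt target Axin2 had a level of 3.01 ± 2.56 CPM (SD, n = 3) in untreated, 88.7 ± 40.6 CPM (SD, n = 3) in Rspo1 tdTom- and 106 ± 42.3 CPM (SD, n = 3) in Rspo1 tdTom+ cells. The reporter used for the sort depends on Axin2 expression, so the levels in the 2 Rspo1 groups are not a check independent of the sort. Untreated and Rspo1 tdTom- cells were both sorted as cells without the reporter and differ in Rspo1 treatment. Cells called Rspo1 tdTom- were thus not low in Axin2. CPM is the count scaled to a common library size, after TMM adjustment. Epithelial markers were high in all groups: Epcam had group means of 583 to 604 CPM and Cdh1 of 1300 to 1636 CPM. Summed over the 8 mesenchymal genes in the files, no library exceeded 1.30 CPM, and over the 4 endothelial genes none exceeded 0.339 CPM. Ptprc, the pan-leukocyte marker, had at most 5 counts in a library, while the 5 immune genes together, mainly Cd68, reached 5.51 to 23.3 CPM.

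The 6 keratins together took 1.20% of all counts in untreated, 1.24% in Rspo1 tdTom- and 0.869% in Rspo1 tdTom+ cells. Their summed level was 11819 ± 1382 CPM (SD, n = 3) in untreated, 12705 ± 1932 CPM (SD, n = 3) in Rspo1 tdTom- and 8422 ± 174 CPM (SD, n = 3) in Rspo1 tdTom+ cells. Levels of different genes were compared on the deposited FPKM, which divides by gene length. In untreated cells Krt19 ranked between 9th and 18th, Krt18 between 14th and 24th and Krt8 between 20th and 26th among all genes by FPKM. In Rspo1 tdTom+ cells Krt19 ranked between 27th and 47th, whereas Krt18 ranked between 9th and 16th. Krt20 ranked between 170th and 451st in untreated libraries and between 837th and 1717th in Rspo1 tdTom+ ones, and Krt23 between 623rd and 2016th over all libraries.

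**Figure D1:**
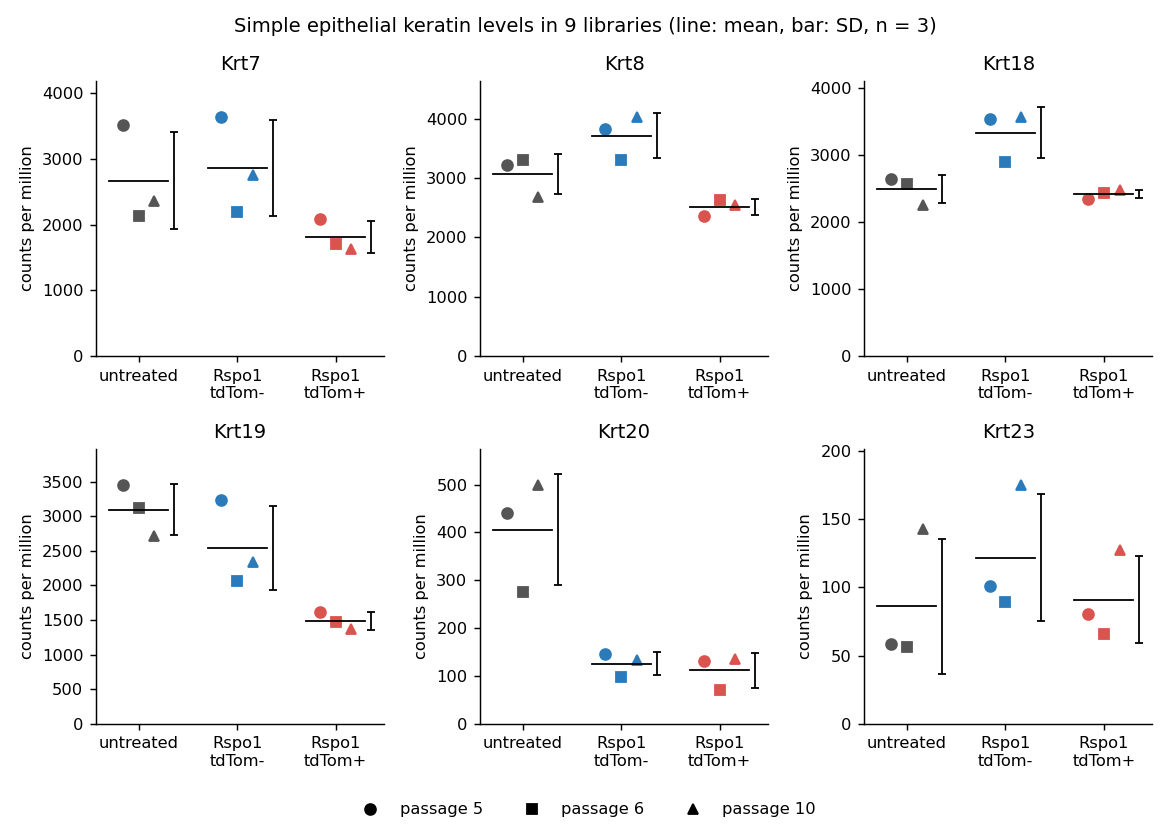
Level of each keratin in CPM (linear axis from 0) in 9 libraries, by group, with circles for passage 5, squares for passage 6 and triangles for passage 10; lines are means and bars SDs of 3 libraries. Krt20 lies between 276 and 500 CPM in untreated cells and between 69.9 and 145 CPM in all 6 libraries of Rspo1 cultures, and Krt19 lies lowest in Rspo1 tdTom+ cells.

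The members split by which group differed. Krt20 was lower in both sorted populations of Rspo1 cultures than in untreated cells, by 3.22 and 3.61 times. Krt19 was 2.09 times lower in Rspo1 tdTom+ than in untreated cells and 1.71 times lower than in Rspo1 tdTom- cells. Krt8 was 1.48 times lower in Rspo1 tdTom+ than in Rspo1 tdTom- cells, a call that, like that of Krt19 there, depended on the fit. Krt7, Krt18 and Krt23 passed no group test in the main analysis, the quasi-likelihood test of edgeR at 0.05 after Benjamini-Hochberg adjustment for all 17011 genes. That fit has no passage term. With passage as a block each of them was called lower in Rspo1 tdTom+ than in Rspo1 tdTom- cells (adjusted p = 0.0104, 0.0433 and 0.0310 by edgeR). With a further offset for GC content and length only Krt7 was.

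In Rspo1 tdTom+ against untreated cells 2 of the 6 keratins were called, both lower, where 5.21% of all tested genes were called and 2.13% were called lower. The libraries of the groups did not overlap for 4 of the 6 (Krt7, Krt8, Krt19 and Krt20), against 23.2% of all tested genes. In Rspo1 tdTom+ against Rspo1 tdTom- cells 2 were called, both lower, against 24.3% of genes called and 9.78% called lower. There 4 of the 6 did not overlap (Krt7, Krt8, Krt18 and Krt19), against 45.2% of genes. In Rspo1 tdTom- against untreated cells 1 was called, Krt20, lower, against 21.9% of genes called and 13.9% called lower, and 2 of the 6 did not overlap (Krt18 and Krt20), against 36.3% of genes. The 3 comparisons share groups, so that their results are not independent. The median log2 fold change of the 6 was -0.43, -0.52 and 0.19 in the 3 comparisons, beside -0.01, 0.03 and -0.02 for all tested genes.

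These counts moved with 2 choices in the model. Libraries of the same passage deviated together from their group means, and a fit with passage as a block called 5 of 6 keratins lower in Rspo1 tdTom+ than in Rspo1 tdTom- cells, all but Krt20, where it called 38.9% of all genes. An offset for the GC content and length of each gene called 0 of 6 there (1 of 6 at an unadjusted p under 0.05 by edgeR, and DESeq2 without the offset called 4), where it called 8% of all genes. Block and offset together called only Krt7, against 23% of all genes. In Rspo1 tdTom+ against untreated cells the block, the offset and both called 2, 2 and 3 keratins, against 13.2%, 5.92% and 16% of genes. In Rspo1 tdTom- against untreated cells they called 2, 1 and 2, against 35.5%, 7.59% and 20.3% of genes. Krt8, Krt18 and Krt19 have transcripts of 57.1%, 56.4% and 57.6% GC, and Krt7, Krt20 and Krt23 of 52.3%, 49.5% and 51.4%.

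**Figure D2:**
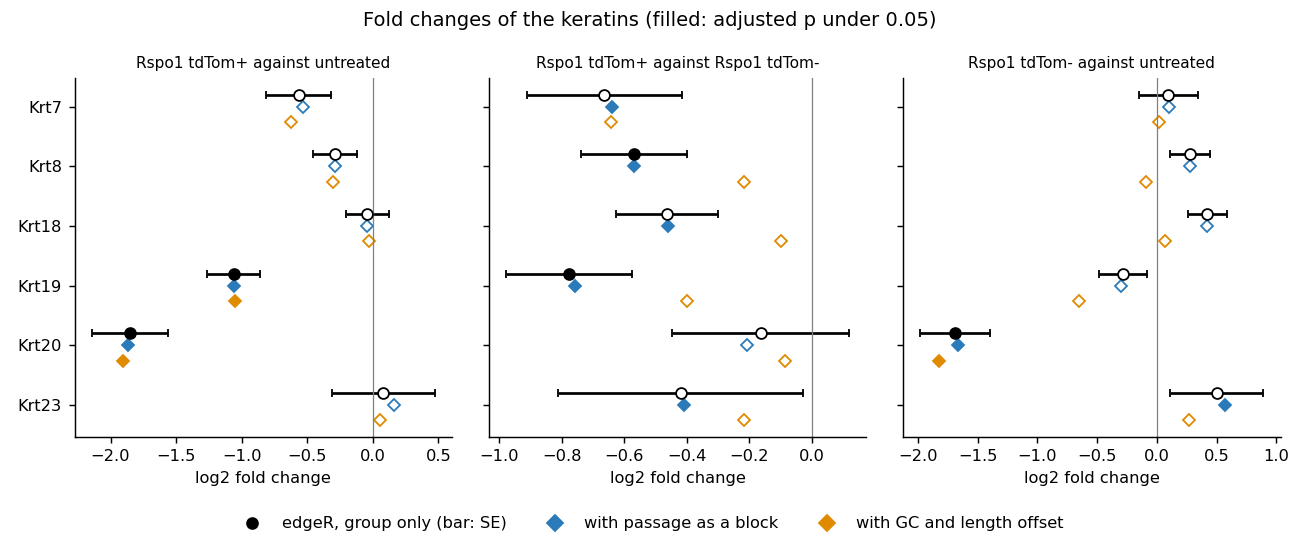
Log2 fold changes of the 6 keratins in the 3 group comparisons, by edgeR with group only (black circles, bars are standard errors), with passage as a block (blue diamonds) and with an offset for GC content and length (orange diamonds); filled symbols have an adjusted p under 0.05. Krt20 against untreated is filled in every fit drawn, while the offset moves Krt8, Krt18, Krt19 and Krt23 in both comparisons with the Rspo1 tdTom- group.

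Among the type II keratins, Krt8 (chr15:101996698-102004482, minus strand, GRCm38) is the partner that all simple epithelia express. Its level at passages 5, 6 and 10 was 3217, 3309 and 2678 CPM in untreated cells. In Rspo1 tdTom- cells it was 3821, 3298 and 4031 CPM, and in Rspo1 tdTom+ cells 2354, 2623 and 2546 CPM. The Rspo1 tdTom+ libraries were therefore the 3 lowest, and the other groups overlapped. Against Rspo1 tdTom- cells the log2 fold change of Krt8 was -0.57 (SE 0.17, adjusted p = 0.0337 by edgeR), and it had the same sign at each passage. The offset for GC and length reduced it to -0.22 (adjusted p = 0.483), as did that offset in the blocked fit (-0.22, adjusted p = 0.40). Without a filter on low counts Krt8 also missed the threshold (adjusted p = 0.0667). So it did when single libraries were dropped, in 5 of 6 such fits: Rspo1 tdTom- replicate 2 was the exception, and the highest adjusted p was 0.123, without Rspo1 tdTom+ replicate 1. Against untreated cells Rspo1 tdTom+ cells had -0.29 (adjusted p = 0.427 by edgeR) and Rspo1 tdTom- cells 0.28 (adjusted p = 0.266), which became -0.09 with the offset. The antisense gene Gm36026 covers 5.16% of the exon bases of Krt8 and had 617 to 1477 counts per library, beside at least 77773 for Krt8. The pseudogene Krt8-ps, 98.6% identical over 941 bases, had 87 to 178 counts.

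Krt7 (chr15:101411043-101430313, plus strand, GRCm38) is the type II keratin that marks ducts. Its level at passages 5, 6 and 10 was 3520, 2133 and 2357 CPM in untreated and 3640, 2184 and 2748 CPM in Rspo1 tdTom- cells. In Rspo1 tdTom+ cells it was 2082, 1707 and 1623 CPM. Passage 5 was the highest library in each group, and every Rspo1 tdTom+ library lay below every library of the other groups. The log2 fold change in Rspo1 tdTom+ cells was -0.57 against untreated (SE 0.25, adjusted p = 0.266 by edgeR) and -0.66 against Rspo1 tdTom- cells (SE 0.25, adjusted p = 0.0744), so neither passed. With passage as a block the values were -0.54 (adjusted p = 0.0518) and -0.64 (adjusted p = 0.0104). With block and GC and length offset both were called, at -0.59 (adjusted p = 0.0418) and -0.60 (adjusted p = 0.0311). Rspo1 tdTom- and untreated cells had a difference of 0.10 (SE 0.25, adjusted p = 0.814 by edgeR).

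The gene model behind the FPKM of Krt7 can matter for its rank among the keratins. Relative to Krt18, the deposited FPKM implied a length of 4094 bases for Krt7, that of its longest GENCODE transcript. That transcript runs 2507 bases past the RefSeq end of the gene, and 1586 of its bases lie inside the RefSeq span. Krt7 had a deposited FPKM of 512 to 849 in untreated libraries, below the 1344 to 1660 of Krt8. At the shorter length, with all its counted reads kept, it would be 1321 to 2191 in the untreated libraries, which overlaps Krt8. How many of its reads lie past the RefSeq end was not examined, and any there would lower these values. The order of these type II keratins per length was therefore not settled.

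Krt18 (chr15:102028180-102032027, plus strand, GRCm38) is the type I partner of Krt8 and its neighbour: the genes start 23698 bases apart and point away from each other. The following 214 bases of build GRCm38.p6 (chr15:102027966-102028179, plus strand) lie directly upstream of the GENCODE start of Krt18. They come from the RefSeq promoter sequence, cut there because that start precedes the RefSeq one. They are shown, with those of Krt20 and Krt23 further on, because these type I keratins had different group patterns. Capitals would mark matches to TATAAA or GGAATG on either strand, and this stretch has none.
Krt18: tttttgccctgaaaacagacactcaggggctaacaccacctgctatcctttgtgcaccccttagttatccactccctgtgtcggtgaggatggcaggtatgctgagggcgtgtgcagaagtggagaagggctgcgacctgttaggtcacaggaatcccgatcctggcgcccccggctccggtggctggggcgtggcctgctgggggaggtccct

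Levels of Krt18 at passages 5, 6 and 10 were 2651, 2569 and 2257 CPM in untreated cells and 3538, 2906 and 3573 CPM in Rspo1 tdTom- cells. In Rspo1 tdTom+ cells they were 2351, 2432 and 2479 CPM. The Rspo1 tdTom- libraries were the 3 highest, and the other groups overlapped. Rspo1 tdTom+ and untreated cells differed by -0.04 on the log2 scale (SE 0.16, adjusted p = 0.944 by edgeR), the smallest of the 6 keratins in that comparison. Against Rspo1 tdTom- cells it was -0.46 (SE 0.16, adjusted p = 0.0600 by edgeR), called with the block (-0.46, adjusted p = 0.0433) and at -0.10 with the offset. Rspo1 tdTom- against untreated cells had 0.42 (SE 0.16, adjusted p = 0.0873 by edgeR). That value was called with upper-quartile scaling (0.50, adjusted p = 0.0406), with DESeq2 (0.45, adjusted p = 0.0067) and without Rspo1 tdTom- replicate 2 (0.54, adjusted p = 0.0434), and was 0.07 with the offset. The pseudogene Gm5200, 90.2% identical to Krt18 over 1269 bases, had 1 to 8 counts.

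Krt19 (chr11:100140810-100148665, minus strand, GRCm38), the shortest keratin as a protein and the common duct marker, had its lowest CPM in Rspo1 tdTom+ cells. At passages 5, 6 and 10 it had 3456, 3127 and 2711 CPM in untreated cells and 3232, 2069 and 2333 CPM in Rspo1 tdTom- cells. Rspo1 tdTom+ cells had 1617, 1472 and 1368 CPM, below all other libraries. Group means were 3098 ± 373, 2545 ± 610 and 1486 ± 125 CPM (SD, n = 3 each). On the log2 scale Krt19 in Rspo1 tdTom+ relative to untreated cells stood at -1.06 (SE 0.20, adjusted p = 0.0127 by edgeR), and within passages it was -1.10, -1.09 and -0.99. The call was lost without Rspo1 tdTom+ replicate 2 (-1.05, adjusted p = 0.0796) or replicate 3 (adjusted p = 0.0674), and the fold change over the fits that left out 1 library was -1.15 to -0.97.

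Against Rspo1 tdTom- cells Krt19 had -0.78 (SE 0.20, adjusted p = 0.0196 by edgeR), or -0.999, -0.49 and -0.77 within passages 5, 6 and 10. The GC and length offset gave -0.40 (adjusted p = 0.255), and the offset with the block -0.39 (adjusted p = 0.123). That call was also lost without replicate 1, 2 or 3 of Rspo1 tdTom+ cells (adjusted p 0.0515, 0.0653 and 0.0748) and without Rspo1 tdTom- replicate 1 (0.075). Rspo1 tdTom- and untreated cells differed by -0.28 (SE 0.20, adjusted p = 0.340 by edgeR), and with both block and offset this was called (-0.67, adjusted p = 0.0192). For Rspo1 tdTom+ against untreated cells the offset left -1.05 (adjusted p = 0.0166).

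Krt20 (chr11:99428403-99438150, minus strand, GRCm38) showed the largest group difference of the 6. The 250 bases that RefSeq places upstream of its start (GRCm38.p6, chr11:99438154-99438403, minus strand, written 5′ to 3′ along the gene) are shown because this gene had the lowest levels in both Rspo1 groups relative to untreated cells. Capitals mark TATAAA, the TATA box core, and GGAATG on either strand, the core that TEAD factors bind.
Krt20: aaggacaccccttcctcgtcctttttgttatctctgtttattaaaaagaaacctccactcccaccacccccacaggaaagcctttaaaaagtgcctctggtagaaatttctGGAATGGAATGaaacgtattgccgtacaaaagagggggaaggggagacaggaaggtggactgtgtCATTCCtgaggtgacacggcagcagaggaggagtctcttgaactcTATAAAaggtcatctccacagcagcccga
Counting back from the RefSeq start, TATAAA begins at base -29. It was also found in the Krt8 window, at bases -3 and -1 on opposite strands, and not in those of Krt7, Krt18 and Krt23. GGAATG occurs 3 times, at bases -139, -134 and, on the other strand, -74, and the first 2 share a base. Over 32817 RefSeq promoter windows of 300 bases (250 before and 50 after the start), searched on both strands, 13.6% hold TATAAA, 14.7% hold GGAATG at least once and 0.128% at least 3 times. GGAATG was chosen for the search after this sequence had been seen, and a match is a string of letters, not a shown binding site. Promoter entries were found for 5 of the 6 members, Krt19 being the other. The TCF/LEF core CTTTGAT (3.73% of windows) and the AP-1 site TGAGTCA (5.20%) were found in none of the 5 windows, and the GC box GGGCGG (35.6% of windows) was found in that of Krt7, 4 times.

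At passages 5, 6 and 10 Krt20 had 440, 276 and 500 CPM in untreated cells. It had 145, 98.0 and 134 CPM in Rspo1 tdTom- and 131, 69.9 and 136 CPM in Rspo1 tdTom+ cells. The lowest untreated library was thus above the highest library of either Rspo1 group, and the Rspo1 groups overlapped. On the log2 scale Krt20 stood relative to untreated cells at -1.85 (SE 0.29, adjusted p = 0.0045 by edgeR) in Rspo1 tdTom+ and -1.69 (SE 0.29, adjusted p = 0.0036) in Rspo1 tdTom- cells. Both calls held in each of the 14 alternative fits run, with an adjusted p of at most 0.0169 and 0.0191. Rspo1 tdTom+ and Rspo1 tdTom- cells differed by -0.16 (SE 0.28, adjusted p = 0.708 by edgeR). Of the summed type I FPKM, Krt20 made up 5.35% ± 1.75 (SD, n = 3) in untreated, 1.59% ± 0.104 in Rspo1 tdTom- and 2.12% ± 0.676 in Rspo1 tdTom+ cells.

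Krt23 (chr11:99477974-99493137, minus strand, GRCm38) lies 39824 bases from Krt20, between the end of Krt23 and the start of Krt20, in the type I cluster. The 233 bases directly upstream of its GENCODE start (GRCm38.p6, chr11:99493138-99493370, minus strand) were cut from the RefSeq promoter sequence, whose start lies further downstream. They are set beside those of Krt20 because these neighbours did not share a group pattern. They hold neither TATAAA nor GGAATG, so no base is in capitals.
Krt23: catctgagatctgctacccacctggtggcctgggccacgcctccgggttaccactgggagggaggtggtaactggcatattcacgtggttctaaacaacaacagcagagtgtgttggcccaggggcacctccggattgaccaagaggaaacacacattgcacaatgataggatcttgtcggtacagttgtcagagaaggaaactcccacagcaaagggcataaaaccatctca

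At passages 5, 6 and 10 Krt23 had 58.8, 56.3 and 143 CPM in untreated cells, 101, 89.2 and 175 CPM in Rspo1 tdTom- cells and 80.5, 65.5 and 127 CPM in Rspo1 tdTom+ cells. In each group the passage 10 library was the highest, and the groups overlapped. No group comparison passed: Rspo1 tdTom+ against untreated cells had 0.08 (SE 0.39, adjusted p = 0.955 by edgeR), and against Rspo1 tdTom- cells -0.42 (SE 0.39, adjusted p = 0.467). Rspo1 tdTom- against untreated cells had 0.50 (SE 0.39, adjusted p = 0.395 by edgeR). With passage as a block the last 2 were called, at -0.41 (adjusted p = 0.0310) and 0.57 (adjusted p = 0.0075), and Krt23 was higher in Rspo1 tdTom- than in untreated cells at 3 of 3 passages. With block and offset together the value against untreated cells was 0.33 (adjusted p = 0.0925).

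The authors' deposited table, whose values come from DESeq2 on 15807 genes, gives the members the same order by fold change in each comparison. For Rspo1 tdTom+ against untreated cells the authors' deposited table lists Krt20 at -1.86 (adjusted p = 5.35e-45), Krt19 at -1.05 (1.04e-16) and Krt7 at -0.53 (0.00139). For Rspo1 tdTom+ against Rspo1 tdTom- cells the authors' deposited table has 5 of the 6 under an adjusted p of 0.05, all but Krt20, where 44.1% of its genes are under it (13.9% against untreated). For Rspo1 tdTom- against untreated cells the authors' deposited table has Krt20 at -1.65 (2.86e-20), Krt23 at 0.59 (0.00483) and Krt18 at 0.43 (0.030), with 27% of its genes under 0.05.

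The balance between members was read within each library as a ratio of deposited FPKM, which cancels the library scale but keeps the gene model lengths. Krt19 to Krt18 was 1.13 ± 0.0504 (SD, n = 3) in untreated, 0.693 ± 0.125 in Rspo1 tdTom- and 0.561 ± 0.0624 in Rspo1 tdTom+ cells. Untreated libraries spanned 1.10 to 1.19, above all Rspo1 libraries, and the Rspo1 groups overlapped. The deposited FPKM implied 1576 bases for Krt19, beside 1855 over all its exons. Whether Krt19 to Krt18 exceeds 1 therefore rests on the gene model, and the order of the libraries does not. In each group this ratio was highest at passage 5 and lowest at passage 10. Krt8 to Krt18, the basic pair, was 0.902 ± 0.0386 in untreated, 0.818 ± 0.0220 in Rspo1 tdTom- and 0.760 ± 0.0289 in Rspo1 tdTom+ cells (SD, n = 3 each). Its ranges of 0.871 to 0.945, 0.793 to 0.833 and 0.735 to 0.792 did not overlap, but those of the Rspo1 groups nearly met. Type II to type I, summed over the 6 genes, was 0.558 ± 0.0239, 0.638 ± 0.0245 and 0.628 ± 0.0190 in the same order, with untreated libraries below all others. With Krt7 at its RefSeq length and all its reads kept, a setting chosen after seeing the data, these 3 ratios were 0.816, 0.905 and 0.881. No test was made on the ratios.

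**Figure D3:**
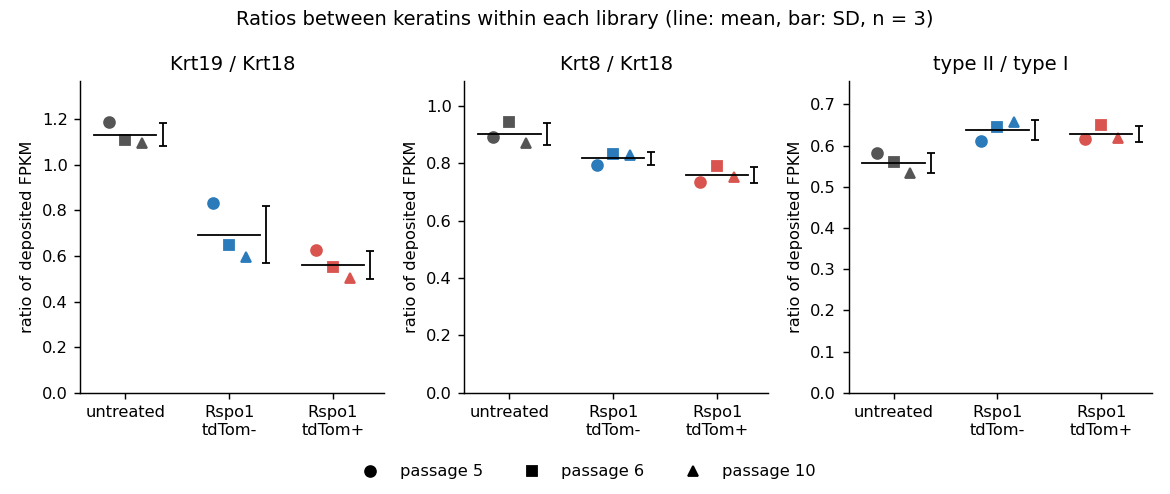
Ratio of Krt19 to Krt18, of Krt8 to Krt18 and of summed type II to summed type I keratins, from deposited FPKM (linear axes from 0), per library by group, with passages 5, 6 and 10 as circles, squares and triangles; lines are means and bars SDs of 3 libraries. Krt19 to Krt18 is higher in every untreated library than in any Rspo1 library. Krt8 to Krt18 has its highest mean in untreated and its lowest in Rspo1 tdTom+ cells, and its Rspo1 groups nearly meet.

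Passage was tested with the group as a term in the model. The 3 libraries of a passage are 1 of each group and not replicates of that passage. The p-values of these tests measure how far the groups differ in their change, and not the spread between cultures of a passage. From passage 5 to 6, 1 of the 6 keratins was called, Krt20, lower, against 2.49% of all tested genes called and 1.33% called lower. Krt20 had -0.71 (SE 0.13, adjusted p = 0.0202 by edgeR) and was lower at passage 6 in 3 of 3 groups. Dropping a single library ended this call in 4 of 6 fits: without replicate 1 of untreated (adjusted p = 0.0846), Rspo1 tdTom+ (0.0973) or Rspo1 tdTom- cells (0.119), and without Rspo1 tdTom+ replicate 2 (0.104). Krt7 had -0.58 (SE 0.16, adjusted p = 0.0924 by edgeR), called by DESeq2 (-0.59, adjusted p = 0.0014) and with no filter (-0.61, adjusted p = 0.0073).

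From passage 5 to 10, 1 of the 6 was called, Krt23, higher, against 9.07% of genes called and 4.57% called higher. Krt23 had 0.91 (SE 0.13, adjusted p = 0.0028 by edgeR). Its level was 80.0 ± 21.0 CPM at passage 5 and 148 ± 24.4 CPM at passage 10 (SD over the groups, n = 3 each). The libraries of those passages did not overlap. The call of Krt23 held in 11 of 12 alternatives, the exception being the fit without a group term (adjusted p = 0.244 by edgeR). Krt20 returned to 0.04 (SE 0.13, adjusted p = 0.865 by edgeR) relative to passage 5. Krt7 had -0.45 (SE 0.16, adjusted p = 0.102 by edgeR), called by DESeq2 (-0.48, adjusted p = 0.0093) and with no filter (-0.48, adjusted p = 0.0329). Krt8 and Krt18 had values between -0.09 and -0.0014 in both passage comparisons.

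Other genes moved with passage too. Of 12 immediate early genes, which respond within minutes to stimuli including cell handling, 5 were called lower at passage 6 and 5 at passage 10, beside 2.49% and 9.07% of all tested genes called. Of 12 proliferation genes 7 were called higher at passage 6 and 2 at passage 10. Cd68, a macrophage marker, was the only gene tested of the immune list, on which Ptprc had at most 5 counts in a library. Cd68 was 18.9 ± 6.49 CPM at passage 5, 7.74 ± 1.5 at passage 6 and 7.03 ± 1.5 at passage 10 (SD over the groups, n = 3 each). It was called lower at both later passages (adjusted p = 0.0038 and 0.0011 by edgeR). The part of these in the passage differences of Krt20 and Krt23 was not tested.

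**Figure D4:**
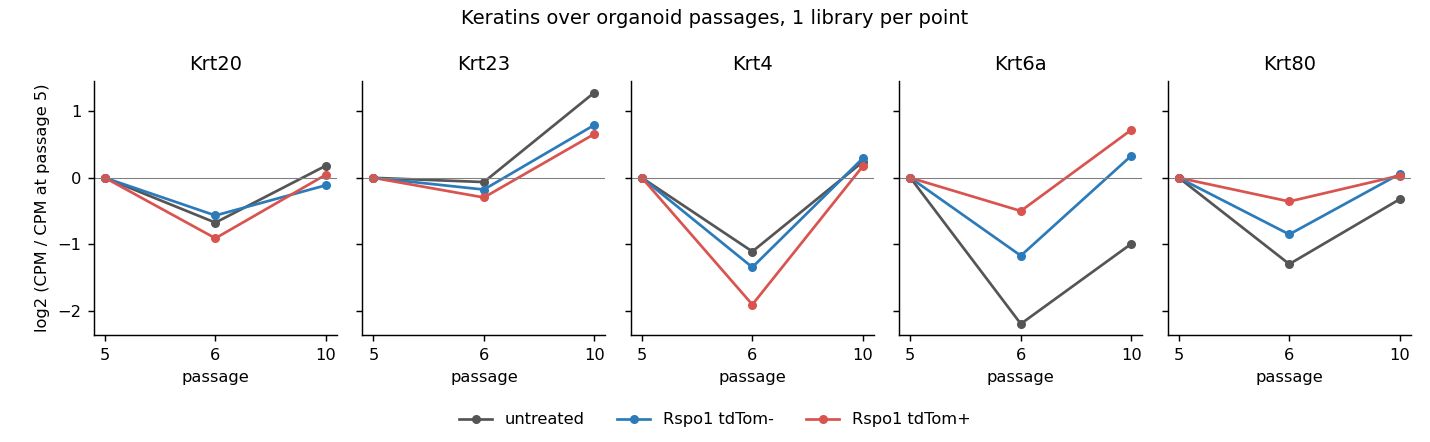
Level of Krt20, Krt23, Krt4, Krt6a and Krt80 at passages 5, 6 and 10, as log2 of the ratio to passage 5 in the same group, with 1 library per point, 1 line per group and the passages evenly spaced. Krt20, Krt4, Krt6a and Krt80 dip at passage 6 in all 3 groups, and Krt23 is highest at passage 10.

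The files hold 38 other keratin genes, most of them keratins of stratified epithelia and hair. Of these, 16 had 3 or fewer counts in every library, and 11 were tested. Krt6a, a type II keratin of stressed and stratified epithelia, had a mean of 49.3 CPM over the 9 libraries, Krt80 45.2 CPM, Krt4 6.49 CPM, Krt10 2.81 CPM, Krt87 2.70 CPM and Krt17 1.67 CPM. By deposited FPKM the means of Krt6a and Krt80 were 20.6 and 11.5, below those of Krt20 and Krt23 in every group. None of the 11 was called in a group comparison by edgeR (1 each at an unadjusted p under 0.05, and 0 by DESeq2), while the fit with passage as a block called 2 lower, 1 higher and 1 lower, and 1 lower. In the same order, edgeR with group only called 5.21%, 24.3% and 21.9% of all tested genes, and the blocked fit 13.2%, 38.9% and 35.5%. At passage 6 against passage 5, 3 of the 11 were called, all lower: Krt4 (-1.42, SE 0.19, adjusted p = 0.0040 by edgeR), Krt80 (-0.83, SE 0.16, adjusted p = 0.0242) and Krt6a (-1.34, SE 0.28, adjusted p = 0.0339). The share of all tested genes called there was 2.49%. Krt4 was called in 11 of 12 alternatives, Krt80 in 8 and Krt6a in 6. None of the 3 was called in the fit without a group term (adjusted p = 0.652, 0.613 and 0.652). Krt80 was not called without replicate 1 of untreated (adjusted p = 0.156) or Rspo1 tdTom- cells (0.121) or without Rspo1 tdTom- replicate 2 (0.0818). Among the fits that dropped a library, Krt6a was called in that without Rspo1 tdTom+ replicate 1 alone, and it was -0.81 (adjusted p = 0.0731) without untreated replicate 1. In untreated cells Krt6a had 81.6, 17.8 and 41.0 CPM at passages 5, 6 and 10, in Rspo1 tdTom- cells 62.2, 27.6 and 78.2 CPM and in Rspo1 tdTom+ cells 40.3, 28.5 and 66.4 CPM. Passage 6 was its lowest library in every group. None of the 11 was called at passage 10 against passage 5 by edgeR (1 at an unadjusted p under 0.05, and 0 by DESeq2). There 9.07% of all tested genes were called.

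Keratin filaments are tied to desmosomes and to each other by linker proteins, and 19 genes of linkers and regulators were tested. In Rspo1 tdTom- against untreated cells 7 were called, all lower, where 13.9% of all tested genes were called lower, and the median log2 fold change was -0.37 over the 19 beside -0.02 for all genes. They included the desmosomal cadherins Dsc2 (-0.97, SE 0.17, adjusted p = 0.0037 by edgeR) and Dsg2 (-0.81, SE 0.16, adjusted p = 0.0063) and periplakin, Ppl (-1.15, SE 0.25, adjusted p = 0.0108). Under the offset for GC and length 2 of the 19 were called there (7.59% of all genes), and Dsc2 (-0.41, adjusted p = 0.14) and Dsg2 (-0.50, adjusted p = 0.0532) were not. In Rspo1 tdTom+ against Rspo1 tdTom- cells 4 were called higher, among them Pnn (1.63, adjusted p = 0.0122 by edgeR) and Dst (1.24, adjusted p = 0.0184), and 1 lower, the plakophilin Pkp3 (-0.51, adjusted p = 0.0095); none of the 5 was called with the offset. These 5 of 19 stand beside 24.3% of all tested genes, and that share is near theirs. Rspo1 tdTom+ against untreated cells gave 0 calls by edgeR (5 at an unadjusted p under 0.05, 2 by DESeq2 and 2 with the block). Of all tested genes 5.21% were called there, and 13.2% with the block.

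Of the intermediate filament genes other than keratins, 10 of 14 were tested. Lmnb1, which encodes lamin B1 of the nuclear lamina, was higher in Rspo1 tdTom+ than in untreated (1.08, SE 0.16, adjusted p = 0.0029 by edgeR) and Rspo1 tdTom- cells (1.03, SE 0.16, adjusted p = 0.0025). Nes, which encodes nestin, was higher in the same comparisons, by 0.97 (SE 0.17, adjusted p = 0.0081 by edgeR) and 1.09 (SE 0.17, adjusted p = 0.0028). By edgeR with group only, these 2 were the only calls of the list in the group comparisons, and none was made in Rspo1 tdTom- against untreated cells (0 at an unadjusted p under 0.05 by edgeR and 0 by DESeq2). In Rspo1 tdTom+ cells these 2 of 10 stand beside 5.21% of all tested genes called against untreated cells. Against Rspo1 tdTom- cells that share was 24.3%, which is near theirs. The lamin and nestin genes had the opposite sign to Krt19 in Rspo1 tdTom+ cells.

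Transcription factors of epithelia were listed as background to keratin expression, and 27 of 29 were tested. In Rspo1 tdTom- against untreated cells 9 were lower and 2 higher, where 21.9% of all tested genes were called and 13.9% called lower, and the median log2 fold change was -0.44. Onecut2, a liver and duct factor, had -2.34 (SE 0.27, adjusted p = 0.00099 by edgeR), Klf6 -1.07 (adjusted p = 0.0021) and Tead1 -1.25 (adjusted p = 0.0022). The offset for GC and length reduced these to -1.25 (adjusted p = 0.0055 by edgeR), -0.53 (adjusted p = 0.0475) and -0.62 (adjusted p = 0.0264). In Rspo1 tdTom+ against Rspo1 tdTom- cells 7 were higher and 0 lower, including Tead1 (1.40, adjusted p = 0.0020 by edgeR) and Onecut2 (1.54, adjusted p = 0.0040). With the offset Tead1 had 0.71 (adjusted p = 0.0185 by edgeR) and Onecut2 0.40 (adjusted p = 0.163). These 7 of 27 are near the 24.3% of all tested genes called, and with the offset 1 of the 27 was called, against 8% of all genes. Sox9, a duct and progenitor factor, was higher in Rspo1 tdTom+ than in untreated cells (1.31, SE 0.32, adjusted p = 0.0412 by edgeR), from 56.4 ± 20.8 to 140 ± 39.1 CPM (SD, n = 3 each), and was called in 9 of 14 alternatives. Tead2 was the other call in that comparison (0.72, adjusted p = 0.0184 by edgeR). These 2 of 27 stand beside 5.21% of all tested genes called. With the block 8 of the 27 were called, 3 higher and 5 lower, against 13.2% of all genes.

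Of 20 other duct epithelial genes, 6 were lower and 2 higher in Rspo1 tdTom+ than in Rspo1 tdTom- cells, where 24.3% of all tested genes were called, and their median log2 fold change was -0.35. The tight junction genes Cldn3 (-0.85, adjusted p = 0.0069 by edgeR) and Cldn4 (-0.65, adjusted p = 0.0121) were lower, and Cftr, the chloride channel of duct cells, was higher (1.51, adjusted p = 0.0032). With the offset 2 of the 20 were called (8% of all genes), and none of these 3. In Rspo1 tdTom+ against untreated cells Cftr was higher (1.59, SE 0.25, adjusted p = 0.0041 by edgeR) and Tspan8 lower (-1.0, SE 0.24, adjusted p = 0.0413), and the block called 9 of the 20, 4 higher and 5 lower, against 13.2% of all genes. The hepatocyte list had 6 of 12 genes tested and 0 called by edgeR in the group comparisons (3, 0 and 1 at an unadjusted p under 0.05, and 1, 0 and 0 by DESeq2). The order is Rspo1 tdTom+ against untreated, then against Rspo1 tdTom-, then Rspo1 tdTom- against untreated cells. Of all tested genes 5.21%, 24.3% and 21.9% were called. The block called 2 lower, 1 higher and 2 lower, and 2 lower, against 13.2%, 38.9% and 35.5% of all genes. The median log2 fold changes were -0.80, -0.68 and -0.48.

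Since Krt20 is a gut and stomach keratin, 12 gastric and intestinal genes were listed, of which 9 were tested. Against untreated cells 3 were lower and 1 higher in Rspo1 tdTom+ cells, and 2 were lower and 1 higher in Rspo1 tdTom- cells, beside 5.21% and 21.9% of all tested genes called. The trefoil peptide gene Tff2 had -2.07 (SE 0.26, adjusted p = 0.0017 by edgeR) in Rspo1 tdTom+ and -1.09 (SE 0.26, adjusted p = 0.0145) in Rspo1 tdTom- cells. Lgals4, an intestinal galectin, had -1.40 (SE 0.23, adjusted p = 0.0062 by edgeR) in Rspo1 tdTom+ cells. Pgc, the pepsinogen C gene, was the gene that rose in Rspo1 tdTom- cells, by 2.90 on the log2 scale (SE 0.58, adjusted p = 0.0073 by edgeR). The summed level of the 11 genes in the files was 1418 to 1925 CPM in untreated, 1071 to 1132 CPM in Rspo1 tdTom- and 716 to 855 CPM in Rspo1 tdTom+ libraries.

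Genes of cell division differed between the same groups. Of 12 proliferation genes 11 were higher in Rspo1 tdTom+ than in untreated cells, 6 were higher in Rspo1 tdTom+ than in Rspo1 tdTom- cells and 6 were higher in Rspo1 tdTom- than in untreated cells, beside 5.21%, 24.3% and 21.9% of all tested genes called. With the GC and length offset 11, 3 and 5 were called, with DESeq2 12, 8 and 8 and with the block 12, 9 and 11, all of them higher. Their summed level was 132 to 231 CPM in untreated, 359 to 410 CPM in Rspo1 tdTom- and 757 to 1017 CPM in Rspo1 tdTom+ libraries. Mki67 was 18.8 ± 7.99, 24.7 ± 13.7 and 220 ± 67.3 CPM (SD, n = 3 each). Immediate early genes reached 933 to 1332, 962 to 1271 and 1155 to 2293 CPM in the same order. The part of either in the differences of Krt19 and Krt20 was not tested.

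Across the 9 libraries the log2 CPM of Krt8 and Krt18 had a Pearson correlation of 0.90, of Krt7 and Krt19 0.83 and of Krt19 and Krt20 0.70. These libraries share 3 groups and 3 passages, so the values describe them and carry no test. Among 11633 genes with a mean log2 CPM above 2, the 3 closest to each member included Lgals3 (0.97), Gm47204 and Anxa8 for Krt7, Map2k2 (0.99) and Aplp1 for Krt8, and Gm17638 (0.98), Eif6 and Trappc5 for Krt18. They also included Phgr1 (0.97), Pllp and Anxa7 for Krt19, Ivl (0.97), Baiap2l1 and 4930523C07Rik for Krt20, and Vipr1 (0.99), Kif19a and Adssl1 for Krt23.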

How the data were processed

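RNA of sorted cells was read as single-end 75 bp reads from 100 ng of total RNA, per the labels' protocols. The submitters' processing notes name Trimmomatic 0.35, FastQC 0.11.2, STAR 2.5.1b, featureCounts, DESeq2 and GRCm38, without roles. The annotation and the strand setting are not given in the sources used here. Per the file headers, the authors deposited raw counts and FPKM per gene and library. They also deposited tables of log2 fold changes, standard errors (a score beside each fold change) and adjusted p-values. Counts ranged from 23423979 to 37351448 per library, and at least 1682 counts per library lie behind each of the 6 keratins.

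Raw counts of 9 libraries were analysed with edgeR 4.0.16 in R 4.3.3. Genes were kept by filterByExpr (minimum count 10, minimum total 15), which left 17011, and libraries were scaled by TMM. Groups were compared by the quasi-likelihood F-test in 1 fit with group as factor, and passages in a fit of group and passage, with Benjamini-Hochberg adjustment over all 17011 genes and a threshold of 0.05. The SE is the fold change divided by the square root of F. FPKM entered ratios and ranks only, as deposited. Counts were also simulated for Rspo1 tdTom+ against untreated cells over 17011 genes. There 63 of 100 changes of 2-fold and 99 of 100 of 4-fold were recovered, with 10 false calls. The simulated libraries were drawn independently, without passage or GC effects, and weakly expressed genes were not changed. These rates may therefore not hold for the real libraries.

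Alternatives were DESeq2 1.42.0, 2 other scalings, no filter, the 6 libraries compared, passage as a block, a GC and length offset (mgcv 1.9.3, 17001 genes with both values) and each library left out. Same-numbered libraries share a passage, per the labels. After removal of group means the log2 CPM (prior count 2) of the 9 same-passage pairs correlated at 0.123 to 0.573, and that of the 18 other pairs at -0.476 to 0.0826, so the passages pair the libraries.

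The members, lists and tests were chosen with earlier results of these data known. Named genes are the 6 keratins, other keratins above 1 CPM, up to 3 genes per other list and comparison with the smallest adjusted p among those called, the 3 genes most correlated with each member, and Axin2. Outside this rule, and after their values were seen, the text names Epcam, Cdh1 and Ptprc as markers and Gm36026, Krt8-ps and Gm5200 as genes that overlap or resemble members. For Krt8, 1 of these genes is not reported here. Promoters come from the RefSeq table of GRCm38.p6 and gene models from GENCODE M21. Near-identical transcripts were sought with blastn 2.17.0 at 90% identity.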

Additional observations from a re-analysis of the deposited data

Results flagged for a closer look

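Within passages, Krt18 in Rspo1 tdTom+ against untreated cells had log2 differences of -0.17 at passage 5, -0.08 at passage 6 and 0.14 at passage 10, so the sign at passage 10 was opposite. Krt23 in the same comparison had 0.45 at passage 5, 0.22 at passage 6 and -0.17 at passage 10. Each value compares 1 library with 1 library, and the difference between passages was not tested.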

How the results depend on the processing

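Of the fold changes of single keratins recomputed under the alternatives, 330 kept their direction and side of the threshold, 22 passed it newly, 22 no longer passed it and 22 changed sign, none of which was called in either fit. Comparisons A, B and C are Rspo1 tdTom+ cells with untreated cells, Rspo1 tdTom+ with Rspo1 tdTom- cells, and Rspo1 tdTom- with untreated cells. The replicate block, with passage as a term, gave 2247, 6624 and 6039 called genes in A, B and C, in place of 886, 4141 and 3724. With it 5 keratins were called in B and 2 in C. Replicate block and GC and length offset together gave 2718 genes in A, and 1 keratin in B and 2 in C. The offset alone gave 1361 genes and 0 keratins in B and 1291 genes in C. In C, upper-quartile scaling called 2 keratins and 49.5% of calls higher, in place of 36.5%, and the 6 libraries alone gave 2234 genes. With no filter 1446 genes were called in A, 1193 and 2 keratins at passage 6, and 2784 and 2 keratins at passage 10. DESeq2 called 1506 genes in A, 4 and 2 keratins in B and C, 851 genes and 2 keratins at passage 6, and 2 keratins at passage 10. Without a group term, that is with no replicate block of groups, passage 6 gave 0 genes and 0 keratins by edgeR (790 genes at an unadjusted p under 0.05) and passage 10 gave 17 genes and 0 keratins.

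Of the 22 changes of sign, 4 came from other settings: Krt8 in C was -0.0874 with the offset and -0.0787 with block and offset, and at passage 6 it was 0.0121 with upper-quartile scaling and 0.0346 with the offset. The other 18 came from leaving out 1 library, with ranges of -0.1084 to 0.0048 for Krt18 and -0.2366 to 0.6622 for Krt23 in A, -0.3378 to 0.0572 for Krt20 in B and -0.1147 to 0.3479 for Krt7 in C. At passage 6 they were -0.0857 to 0.1178 for Krt8 and -0.1622 to 0.0118 for Krt18, and at passage 10 -0.1582 to 0.1054 for Krt8, -0.1566 to 0.0559 for Krt18 and -0.0191 to 0.1197 for Krt20.

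Leaving out 1 library gave 384 to 909, 2109 to 4123 and 1935 to 3825 genes in the group comparisons, and 92 to 826 and 382 to 658 at passages 6 and 10. Keratins called were 1 to 2, 0 to 4 and 1 to 2, then 0 to 1 and 1 to 1. The ratio of type II to type I keratins was 0.547 to 0.571, 0.627 to 0.651 and 0.617 to 0.634 in untreated, Rspo1 tdTom- and Rspo1 tdTom+ cells. From CPM over gene-model length it was 0.529, 0.602 and 0.591. Without Krt20 and Krt23 it was 0.599 in untreated and 0.655 in Rspo1 tdTom+ cells. With Krt7 at its RefSeq length and all its reads kept it was 0.816, 0.905 and 0.881. The cause of these shifts was not tested. Depth limits none of the 6 keratins, and the number of cultures from 1 animal limits each comparison.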
